A study of Caenorhabditis elegans with 2 samples.

Results

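The 475 genes described here are all nuclear genes of the C. elegans WBcel235 annotation with the biotype snoRNA (346 genes) or snRNA (129 genes), out of 46890 nuclear genes. A gene was counted with an LSY-2 summit when the highest point of a reproducible ChIP-seq peak lay within 200 bp of it. By this measure 87 snoRNA genes and 24 snRNA genes had a summit, 111 in all, on 109 distinct summits. An interval of the median member length, 125 bp, placed at every nuclear position would have a summit within 200 bp in 3.07% of placements. Where several summits lay near a gene, the strongest was taken.

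LSY-2, a C2H2 zinc finger protein that helps set the left or right identity of the paired ASE gustatory neurons, was profiled in whole L4 larvae of strain OP367, in which unc-119(tm4063) III is combined with the integrated transgene wgIs367 that makes LSY-2 with GFP-FLAG at its C terminus. Both biological replicates, of pooled sexes, came from this 1 strain, and no untagged or other comparison group was analysed here. The signal is that of the whole animal, so cell types cannot be told apart, and the peak lists hold no read counts, so depth is unknown.

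Small nucleolar RNAs (snoRNAs) guide the methylation or pseudouridylation of ribosomal and other RNAs: those with boxes C and D work with fibrillarin, and those with boxes H and ACA with dyskerin. Small nuclear RNAs (snRNAs) are the RNA core of the spliceosome, and in nematodes the class also holds the spliced leader RNAs SL1 and SL2, which give up their 5′ end to other mRNAs, SL2 mainly to downstream genes of operons. Promoters of snRNA genes carry a proximal sequence element bound by the SNAP complex, whereas RNA polymerase III genes such as tRNA genes are recognised through internal A and B boxes, and many snoRNAs are instead cut out of the introns of host genes.

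The sequences below show the DNA just upstream of the RNA, where the summits gathered, for some of the genes with strong summits and for snoRNA genes chosen to show the words marked in them. The strongest snoRNA and snRNA summits, at F39B2.14 and sls-2.4, are described without sequence. Each runs 5′ to 3′ on the strand of the RNA, from 90 bases before its first base to base 10 of the RNA, in the RefSeq copy of WBcel235. Capitals mark a match, on either strand, to one of the following words. GTTCGA holds the letters of the B box core of tRNA genes. GGAACCC was picked because it recurred in these sequences, after their values were seen. The word TGGCGCA was picked in the same way. The first group is SL2 RNA genes with a summit: sls-2.1 (chrII:5844775-5844874, plus strand), sls-2.2 (chrII:5543508-5543607, plus strand) and sls-2.8 (chrIII:12250375-12250474, plus strand). For contrast, sls-2.12 (chrIV:5261823-5261922, plus strand) is an SL2 RNA gene with no peak in any list.
sls-2.1: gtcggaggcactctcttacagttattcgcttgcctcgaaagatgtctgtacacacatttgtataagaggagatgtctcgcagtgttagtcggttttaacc
sls-2.2: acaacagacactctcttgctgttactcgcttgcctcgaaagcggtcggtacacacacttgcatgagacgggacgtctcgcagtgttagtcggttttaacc
sls-2.8: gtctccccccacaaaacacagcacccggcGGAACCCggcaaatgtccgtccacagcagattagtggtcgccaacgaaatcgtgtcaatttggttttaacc
sls-2.12: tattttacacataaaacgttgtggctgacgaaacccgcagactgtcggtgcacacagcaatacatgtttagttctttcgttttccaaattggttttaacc

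The next group is other snRNA genes of high signal: W05B2.8 (chrIII:10989589-10989688, plus strand), F38E11.10 (chrIV:9444552-9444651, plus strand) and C52E4.8 (chrV:11980028-11980127, plus strand).
W05B2.8: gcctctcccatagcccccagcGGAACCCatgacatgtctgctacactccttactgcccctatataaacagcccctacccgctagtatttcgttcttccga
F38E11.10: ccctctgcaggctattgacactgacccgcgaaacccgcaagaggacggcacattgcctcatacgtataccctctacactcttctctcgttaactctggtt
C52E4.8: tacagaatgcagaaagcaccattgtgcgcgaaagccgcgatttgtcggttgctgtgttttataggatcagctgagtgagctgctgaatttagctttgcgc

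The last group is snoRNA genes with a summit, chosen by the word they carry to show how their upstream letters differ: Y43F8C.22 (chrV:19643178-19643277, minus strand), C51F7.3 (chrV:12303618-12303717, plus strand), Y53F4B.47 (chrII:15025884-15025983, minus strand), C36E8.11 (chrIII:4004345-4004444, plus strand), D2021.6 (chrX:8546195-8546294, minus strand) and M7.15 (chrIV:11083057-11083156, plus strand), the last with no marked word.
Y43F8C.22: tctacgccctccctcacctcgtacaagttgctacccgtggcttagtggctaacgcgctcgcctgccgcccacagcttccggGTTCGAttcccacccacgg
C51F7.3: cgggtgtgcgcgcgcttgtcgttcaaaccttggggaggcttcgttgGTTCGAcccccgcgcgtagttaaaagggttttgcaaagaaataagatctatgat
Y53F4B.47: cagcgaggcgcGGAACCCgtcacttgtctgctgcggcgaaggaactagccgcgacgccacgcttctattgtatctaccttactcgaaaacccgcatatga
C36E8.11: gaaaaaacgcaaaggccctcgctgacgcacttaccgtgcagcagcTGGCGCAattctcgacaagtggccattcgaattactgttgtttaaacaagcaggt
D2021.6: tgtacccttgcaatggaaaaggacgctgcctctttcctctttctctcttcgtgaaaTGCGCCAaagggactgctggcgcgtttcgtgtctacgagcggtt
M7.15: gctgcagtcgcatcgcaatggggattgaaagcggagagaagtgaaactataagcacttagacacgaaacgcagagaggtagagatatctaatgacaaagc

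The first question was how often LSY-2 peaks lie at these genes. A summit lay at 87 of 346 snoRNA genes (25.1%, exact 95% interval 20.7 to 30.1) and at 24 of 129 snRNA genes (18.6%, 12.3 to 26.4). The intervals are Clopper-Pearson intervals over genes and cover counting error only. Placement at every nuclear position gave 3.07%, as above. Among other small RNA genes, the share was 30.6% of 612 tRNA genes and 6.51% of 261 miRNA genes. Of 19973 protein-coding genes, 8.57% had a summit within 200 bp of a 5′ end, and 19.5% had one in a promoter window of 1000 bp upstream to 200 bp downstream. The snoRNA and snRNA shares were thus above those of the miRNA genes and of all positions, and the snoRNA interval lies between those values and the tRNA share. Of the 24 snRNA genes with a summit, 12 were SL2 RNA genes, a family of 18.

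**Figure D1:**
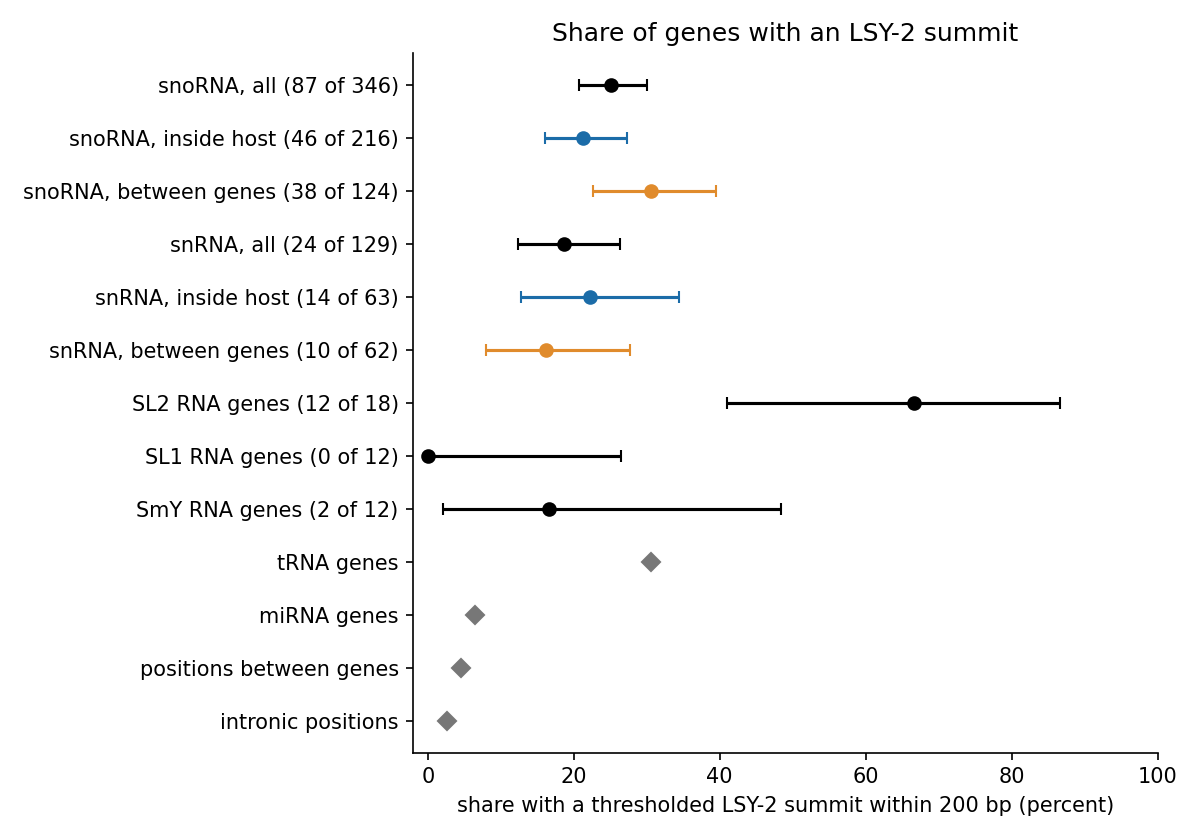
Share of genes with a thresholded LSY-2 summit within 200 bp, in percent, by class and location. Circles are the member groups with exact 95% intervals (black, whole class or family; blue, inside a host gene; orange, between genes), and grey diamonds are comparison sets. SL2 RNA genes sit highest at 66.7% and SL1 RNA genes at 0. With summits in coding promoter windows kept, both location groups of each biotype sit above the 4.5% of positions between genes.

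Summits were found at snoRNA and snRNA genes inside hosts as well as between genes. Inside a host protein-coding gene, on either strand, 46 of 216 snoRNA genes had a summit (21.3%, 16.0 to 27.4). Between protein-coding genes, 38 of 124 had one (30.6%, 22.7 to 39.6), and 3 of 6 that only partly overlapped a coding gene did. The same interval placed in introns of coding genes gave 2.59%, in introns of the host genes themselves 5.96%, and between coding genes 4.5%. Among snRNA genes, 14 of 63 inside a host (22.2%, 12.7 to 34.5) and 10 of 62 between genes (16.1%, 8.02 to 27.7) had a summit, and 0 of 4 that partly overlapped a gene. The intervals of the 2 locations overlap in each biotype.

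Coding promoters lie close to many of these genes. Of the 87 snoRNA summits counted, 32 lay in a promoter window of a coding transcript, and of the 24 snRNA summits 10 did. Over distinct summits this is 37.6% of those at members, against 56.9% of the other summits in the list. Leaving those summits out lowered the shares to 15.9% of snoRNA and 10.9% of snRNA genes, and, between genes, to 15.3% and 3.23%. Positions between coding genes had 4.5% with promoter summits kept, which is above this snRNA share between genes. No share of positions was computed with promoter summits left out. All but 3 of the 111 counted summits lay nearer to the 5′ end of the RNA than to any coding 5′ end. Summits were counted only within 200 bp of the RNA gene, with no such limit for coding 5′ ends. That order is therefore largely set by the counting rule and does not assign a summit to the RNA. Of genes whose 5′ end lay over 1000 bp from any coding 5′ end, 28 of 115 snoRNA genes inside hosts (24.3%) and 19 of 77 between genes (24.7%) had a summit. The same held for 7 of 33 snRNA genes inside hosts (21.2%), but between genes for 1 of 35 (2.86%), which was sls-2.2.

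Summits concentrated just upstream of the RNA. With distances counted along the RNA's strand from its first base, the median was -36 bp for snoRNA genes (quartiles -53 and 0.5) and -17.5 bp for snRNA genes (quartiles -32.2 and 27.5). Of the 87 snoRNA summits, 61 lay in the 100 bp upstream, 17 within the RNA and 5 beyond its 3′ end. For snRNA genes the counts were 17, 6 and 1 of 24. Counting every summit within 1000 bp of genes inside hosts or between genes, the 100 bp upstream held 29 summits per 50 bp at snoRNA genes, against a mean of 3.45 per 50 bp at 500 to 1000 bp on either side. At snRNA genes these densities were 8.5 and 0.7. The concentration was present both inside hosts, where the snoRNA median was -25 bp, and between genes, where it was -41.5 bp.

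**Figure D2:**
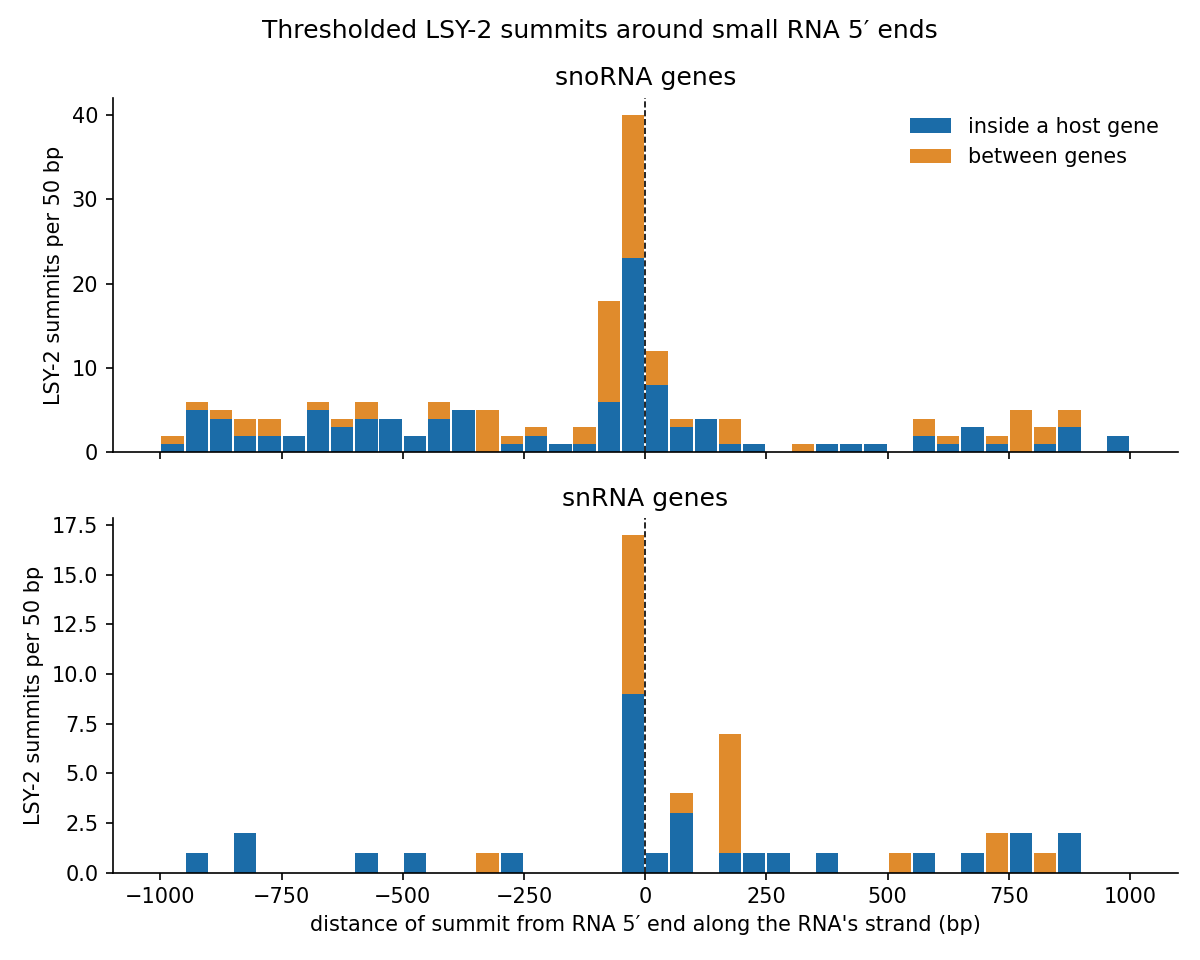
Number of thresholded LSY-2 summits per 50 bp (y axis) against distance from the RNA 5′ end along the strand of the RNA in bp (x axis), for snoRNA genes above and snRNA genes below, with genes inside hosts in blue and between genes in orange. A summit near several genes is counted for each. The highest bar in both panels is the 50 bp upstream, with 40 summits at snoRNA and 17 at snRNA genes.

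The main list was thresholded by IDR, the irreproducible discovery rate, a measure of how well peak ranks match between replicates. Of the 109 distinct summits at these genes, 107 had a peak within 200 bp in each replicate, as did 5716 of the 5835 other summits, so that the members do not stand out in a list already thresholded on the replicates. Their log2 signals correlated across summits with Pearson's r of 0.90 and Spearman's rho of 0.861 (n = 107), and those of the other summits with 0.885 and 0.792 (n = 5716), a description over summits that share the same 2 libraries. The median log2 ratio of replicate 1 to replicate 2 was 0.39 at these 107 summits and 0.51 at the other 5716. The exceptions, with no peak in replicate 2, were at sls-2.6 (signal 52.2 in replicate 1) and the snoRNA gene C41C4.11 (72.3). Both genes were singled out after their values were seen.

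**Figure D3:**
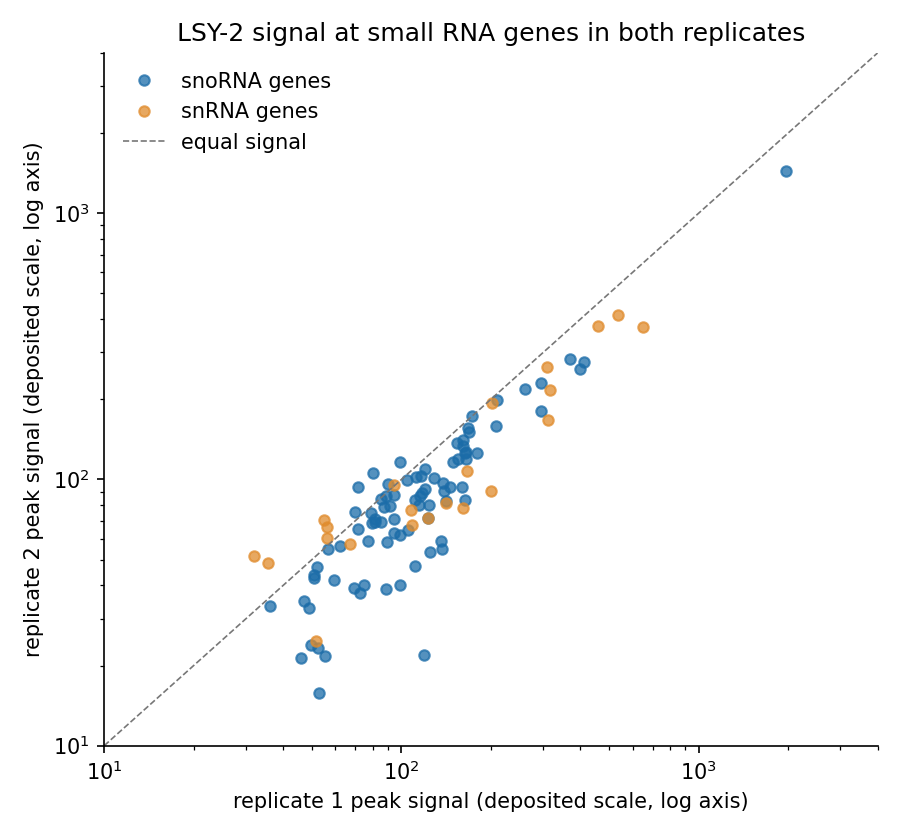
Peak signal in replicate 2 (y axis) against replicate 1 (x axis), both in the deposited unit on log axes, at the 107 distinct member summits with a peak in each replicate. Blue points are snoRNA genes, orange points are snRNA genes and the dashed line marks equal signal. Most points lie below the line, as the median log2 ratio of 0.39 gives, and the point at the upper right is F39B2.14.

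Member summits were stronger than most. Their median signal was 189, against 114 for the other summits, and 90 of 109 (82.6%) stood among the 2972 strongest of the list. Of these, 13 were among the 500 strongest. Signal over the whole list ran from 59.9 to 19064.5, and at members from 62.8 to 3398. The signal is the authors' own value per peak, in a scale the sources used here do not give.

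Among snRNA genes the SL2 RNA genes led. Of 18 sls-2 genes, 12 had a summit (66.7%, 41.0 to 86.7), and 4 of the 5 strongest snRNA summits between genes were theirs. At sls-2.4 (WBGene00004836, chrI:4172206-4172315) the signal was 651 in replicate 1 and 373 in replicate 2, and 1044 in the pooled, thresholded list, where it ranked 170. At sls-2.1 (WBGene00004833) the replicates had 536 and 415, and the thresholded list 971. At sls-2.2 (WBGene00004834) the values were 458, 377 and 858. These 3 genes were high in both replicates and kept close ranks, 160 and 214 for sls-2.4, 200 and 192 for sls-2.1, and 238 and 209 for sls-2.2. At sls-2.8 the replicates had 309 and 264 (569 in the thresholded list). The summits of sls-2.4, sls-2.1 and sls-2.8 lay in a promoter window of a coding transcript, and that of sls-2.2 did not.

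The remaining SL2 genes with a summit were weaker, from 264 at sls-2.3 to 73.7 at sls-2.6. Those inside hosts lay in introns. Among them, sls-2.5 lay on the strand of its host glr-2, a glutamate receptor gene, and sls-2.16 and sls-2.18 opposite to it. Their thresholded signals were 127, 180 and 127. Others were sls-2.6 on the strand of its host hgo-1 (73.7) and sls-2.14 opposite to its host W09D6.5 (123). The genes sls-2.10, sls-2.11 and sls-2.12 had no peak within 200 bp in any list, while sls-2.9, sls-2.13 and sls-2.17 had one in replicate 2 alone (66.3, 52.1 and 46.3).

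**Figure D4:**
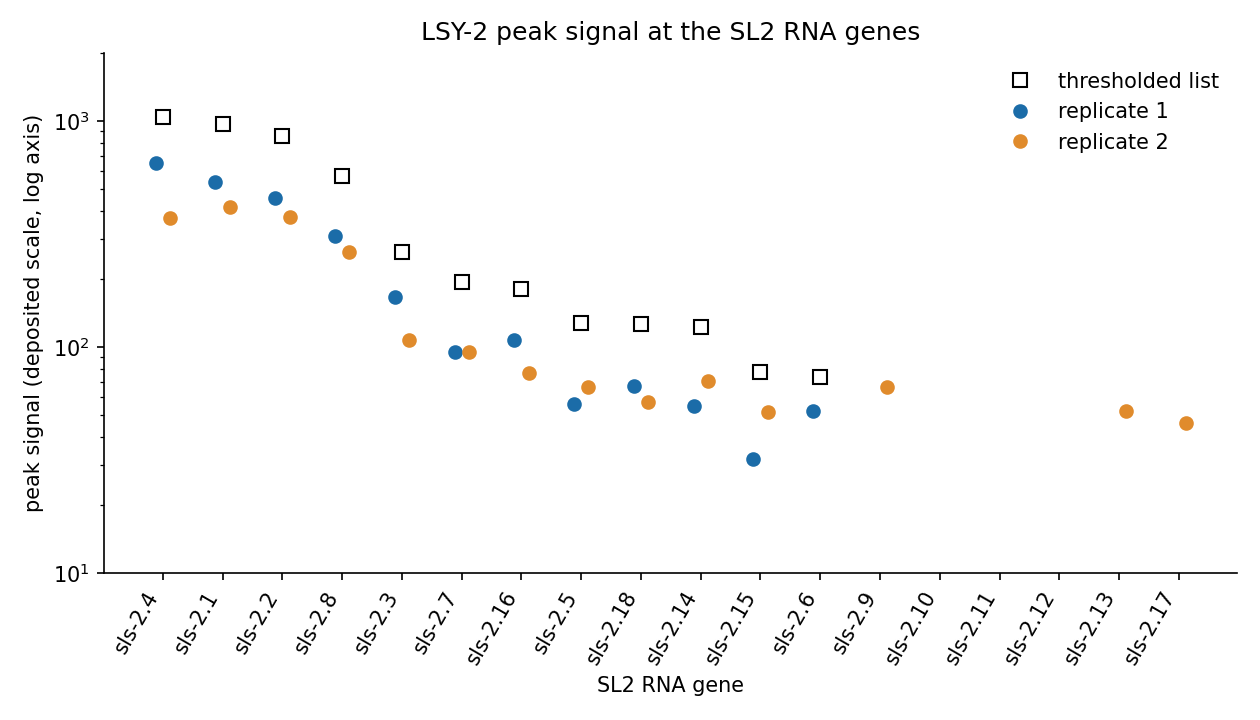
Peak signal in the deposited unit (y axis, log scale) at each of the 18 SL2 RNA genes (x axis), ordered by thresholded signal. Open squares are the thresholded list, blue and orange points are replicates 1 and 2, and a missing symbol means no listed peak within 200 bp. Signal falls from 1044 at sls-2.4 to 73.7 at sls-2.6, and 3 genes have no symbol at all.

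No SL1 RNA gene had a peak: 0 of 12 sls-1 genes did, in the thresholded, pooled or replicate lists. These genes stand in a tandem repeat on chromosome V, and the share of 50 bp windows in and around each gene that occur once in the genome was 0 to 29.4%, against a median of 94.2% for the SL2 genes. The sources used here do not say how reads from repeated sequence were handled, and the part of sequence uniqueness in this count was not tested. Over all snRNA genes, 13 of 80 with under 90% unique windows had a summit, and 11 of 49 at or above it (22.4%).

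The other snRNA genes were grouped by shared sequence, and each family is named by 1 gene. In the W05B2.8 family 3 of 22 genes had a summit. W05B2.8 itself, in an intron of the dynein gene dhc-4, had 317 and 218 in the replicates and 537 in the thresholded list, although 14 genes share its RNA sequence exactly. R07E5.16, one of those copies, in an intron of the mitochondrial pyruvate carrier gene mpc-1, had 123 and 71.5 (thresholded 199). The 14 copies were thus not alike in listed signal: C28A5.7, another copy, stood below the threshold with a pooled signal of 48.8. The share of unique windows also differed, at 87.2% for W05B2.8, 83.9% for R07E5.16 and 71.3% for C28A5.7. Its part in these signals was not tested.

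In the family of sup-39 and sup-6, which are genes for U1 snRNA, 3 of 14 genes had a summit. At sup-6 the signal was 200 in replicate 1 and 90.6 in replicate 2 (thresholded 290). At sup-39 it was 109 and 67.4 (thresholded 170), on a summit shared with mir-1831, a 22 bp gene of biotype snRNA that lies within sup-39. Replicate 1 was the higher at both genes. The F38E11.10 family had 3 of 12 genes with a summit, led by F38E11.10 with 311 and 167 (thresholded 482) and by F32B5.9, opposite to the cathepsin gene cpz-1, with 161 and 78.4 (thresholded 229). The summits of sup-39 and F38E11.10 lay in a promoter window of a coding transcript, and those of sup-6 and F32B5.9 did not. In the C52E4.8 family 1 of 5 genes had a summit, C52E4.8, with 201 and 193 (thresholded 400). This summit is also the one in the promoter window of snr-4, which encodes an Sm protein. The F08G2.10 family had 2 of 18 and the F20D1.21 family 0 of 2.

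At several snRNA genes a further summit lay beyond the 3′ end, a pattern noticed after the values were seen. It was present at 7 of the 24 snRNA genes with a summit, 12 to 89 bp past the 3′ end, and 199 to 226 bp from the main summit over the 10 members with such a pair. At sls-2.2 the downstream summit had a signal of 641 beside 858 upstream, at sls-2.4 559 beside 1044, and at sls-2.1 351 beside 971. At C52E4.8 it had 209 beside 400, at F38E11.10 193 beside 482, and at W05B2.8 147 beside 537. The weakest pair was at F42C5.12, with 63.8 beside 69.3, and the upstream summit was the higher at all 7. Strong signal did not always go with a pair, since sls-2.8 (569) had 1 summit. Of member summits, 10 of 109 (9.17%) had another summit within 250 bp, against 3.84% of the whole list. The smallest distance between summits anywhere in the list was 199 bp, and the part of the authors' peak calling in this spacing was not tested.

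Among snoRNA genes the strongest summit was at F39B2.14 (WBGene00219940, chrI:14759178-14759412), in an exon of the host gene tmem-107, a transmembrane protein gene. It had 1969 in replicate 1 and 1439 in replicate 2, rank 40 and 36, and 3398 in the thresholded list. The summit lay 122 bp upstream of the RNA and 61 bp from a coding 5′ end, and it was also the strongest summit in the promoter window of tmem-107, so the RNA and its host cannot be told apart there.

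The next snoRNA genes inside hosts were far weaker. Y43F8C.22, in an intron of Y43F8C.7, had 208 and 159 (thresholded 367), and B0334.12, opposite to the potassium channel gene twk-5, had 169 and 150 (thresholded 320). C51F7.4 and C51F7.3 in frm-7 share 1 summit, which had 161 and 141 (thresholded 302). It lay 16 bp into the first RNA and 93 bp upstream of the second.

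Between genes, F59C6.15 led with 413 and 276 in the replicates (thresholded 692), 48 bp upstream of the RNA. K02A11.12 had 399 and 259 (thresholded 657), and it lay over 1000 bp from any coding 5′ end. Y53F4B.47 had 368 and 283 (652), C36E8.11 had 296 and 231 (509) and M7.15 had 296 and 181 (486). Replicate 1 was higher at each of these 5 genes, as at most summits of the list. The summits of F59C6.15, Y53F4B.47, C36E8.11 and M7.15 lay in a promoter window of a coding transcript, and that of K02A11.12 did not.

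The share was higher for snoRNA genes opposite to their host. Of snoRNA genes on the strand of their host, 34 of 183 had a summit (18.6%), and of those on the opposite strand 12 of 33 (36.4%, 20.4 to 54.9). The exact intervals overlap. For snRNA genes the counts were 9 of 37 and 5 of 26. The hosts' own promoters had a summit in 21 of 45 hosts of snoRNA genes with a summit (46.7%) and in 78 of 144 hosts of those without (54.2%). For snRNA genes the order was the opposite, with 4 of 10 hosts (40%) and 4 of 35 (11.4%). Of all coding genes, 19.5% had a summit in the promoter window. A summit counted at a member can also be the one in its host's promoter. Among members with a summit, 11 of 46 snoRNA and 2 of 14 snRNA genes had it in a coding promoter window. The shares for hosts of members with and without a summit are therefore not like for like. In 13 ribosomal protein hosts, a group looked at after the values were seen, all 13 promoters had a summit and 0 of the 19 snoRNA genes inside them did. The exact interval of that share reaches 17.6%, and 6 of these 19 genes (31.6%) had a pooled peak below the threshold.

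Shorter snoRNA genes had summits more often. Under 100 bp, 41 of 93 had one (44.1%, 33.8 to 54.8), and at 100 bp or more 46 of 253 (18.2%, 13.6 to 23.5). Box letters gave a like division: 14 of 23 snoRNA genes with TGATG in the first 20 bases and CTGA in the last 20, as in boxes C and D, had a summit (60.9%, 38.5 to 80.3). With ACA placed 3 bases before the 3′ end it was 14 of 58 (24.1%, 13.9 to 37.2), and with neither 59 of 265 (22.3%, 17.4 to 27.8). Length and box class go together, with medians of 78, 133 and 129 bp. A missing match says only that these letters are not at those places. The SmY RNA genes, nematode RNAs found with the Sm proteins, are divided between the biotypes in this annotation. The 2 of biotype snoRNA both had a summit, smy-2 (136 and 58.9 in the replicates) and smy-3 (50.7 and 42.5), and 0 of the 10 of biotype snRNA did.

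Words were counted upstream of the RNA in genes with and without a summit. Since GGAACCC was picked from upstream sequences of genes with strong summits, and the word TGGCGCA likewise, a higher share in genes with a summit is partly built in by that choice, and their counts are a description that supports no difference. In the 120 bp upstream, on either strand, GTTCGA was present at 16 of 87 snoRNA genes with a summit (18.4%) and 16 of 259 without (6.18%), and in 4.43% of all 120 bp windows of the nuclear genome. GAGAGA was present at 19 of 87 (21.8%) and 24 of 259 (9.27%), and in 6.12% of genome windows. TGGCGCA was present at 17 of 87 (19.5%) and 9 of 259 (3.47%), and in 0.584% of genome windows. GGAACCC was present at 11 of 87 (12.6%) and 10 of 259 (3.86%), and in 0.495% of windows. At snRNA genes GGAACCC was at 9 of 24 with a summit (37.5%) and 22 of 105 without (21.0%), against 0.270% upstream of coding genes. At least 1 of GTTCGA and the picked words stood upstream of 37 of the 87 snoRNA genes with a summit (42.5%) and 35 of 259 without (13.5%). All 21 snoRNA and 31 snRNA occurrences of GGAACCC were on the strand of the RNA, at a median of -62 and -60 bp.

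Seen from the words, 17 of 26 snoRNA genes with TGGCGCA had a summit (65.4%), 11 of 21 with GGAACCC (52.4%) and 16 of 32 with GTTCGA (50%). Without the word the shares were 21.9%, 23.4% and 22.6%. For TGGCGCA and GGAACCC the higher share is again partly built in, since they were picked from genes with strong summits. No summit at a member lay within 200 bp of an annotated tRNA gene, so leaving such summits out changed no count. TATAAA was as frequent with a summit (12.6%) as without (12.4%).

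The same words were counted at the summits themselves, where the choice of the picked words again favours members. Within 50 bp of a summit, AGACGCAG stood at 2 of 109 member summits (1.83%, 0.223 to 6.47) and 551 of 5835 others (9.44%). This word was chosen with earlier results of these data known, so its lower share at members may be partly built in. GAGAGA stood at 11.0% and 25.9%, the opposite order to its counts upstream of snoRNA genes with and without a summit. More frequent at member summits than elsewhere, TGGCGCA stood at 14.7% and 2.35%, GTTCGA at 13.8% and 4.49%, and GGAACCC at 10.1% and 0.189%. GCAAACAC, at 3.67% and 4.94%, differed little. A match is a description, not a binding site.

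Peaks of the pooled list were also counted. With every peak of that list, strong ones included, 46.5% of snoRNA and 27.9% of snRNA genes had one within 200 bp. The same count gave 14.3% of nuclear positions. Among genes without a thresholded summit, a pooled peak lay at 28.6% of snoRNA genes and 11.4% of snRNA genes. The snRNA share is thus below that of all positions, which also counts strong peaks. Of the 74 snoRNA genes with a pooled peak alone, 42 had a peak in both replicates, and 18 (24.3%) had the pooled summit in the 100 bp upstream, compared with 70.1% of thresholded ones. For snRNA genes it was 6 of 12 (50%), compared with 70.8%. The snoRNA median position of these weaker peaks was 29 bp into the RNA. The 3 strongest snoRNA genes of this kind were Y71G12B.41 (59.5), F19H8.7 (59.4) and R166.7 (58.4), just under the lowest thresholded signal of 59.9. For snRNA genes they were F08G2.9 (53.6), Y57G11C.35 (50.3) and C28A5.7. No peak of the pooled list lay at 185 snoRNA and 93 snRNA genes.

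The protein partners of these RNAs were also looked up. Of 72 genes for RNP proteins and their transcription machinery, 44 had a summit in the promoter window (61.1%, 48.9 to 72.4), against 19.5% of all coding genes. Listed names that matched no gene were left out. All 6 matched box C/D snoRNP genes had a promoter summit (exact interval 54.1% to 100%), with fibrillarin's fib-1 at 1131, nol-56 at 527 and nol-58 at 485. Of the matched H/ACA snoRNP genes 3 of 4 did (19.4% to 99.4%), nola-3 at 495, Y48A6B.3 at 399 and the dyskerin gene dkc-1 at 279. In the Sm and LSm ring 14 of 15 did, led by snr-3 (2447), snr-6 (2054) and lsm-1 (1247). Of Integrator, which cuts the 3′ ends of snRNAs, 9 of 11 did, led by ints-11 (953), ints-4 (859) and ints-1 (307).

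For the transcription factors of small RNA genes the lists are short and the intervals wide. In the SNAP complex 2 of 7 genes had a summit (28.6%, 3.67 to 71.0), snpc-3.4 (1905) and snpc-1.1 (98.2), and among RNA polymerase III subunits and factors 3 of 9 (33.3%, 7.49 to 70.1), mafr-1 (2835), tftc-1 (301) and rpc-1 (94.3). For proteins of single snRNPs it was 5 of 16, led by prp-8 (3267), prp-31 (1057) and eftu-2 (426), and for snRNP assembly 2 of 4, smn-1 (142) and prmt-5 (121).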

How the data were processed

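ChIP-seq peak lists of 2 biological replicates of 1 strain were used. Per the deposited notes, the authors made them from alignments and a control alignment. The sources used here name no aligner, peak caller or IDR threshold, and the control was not analysed here. The ce11 lists hold the thresholded peaks and 30000 peaks and background regions each for the pooled data and both replicates. The signal of each peak and its -log10 q-value are as the authors deposited them, and the q-value was not used. The deposited summit offset was added to the peak start and written counting from 1. Lists made on ce10 were not used.

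Genes came from Ensembl release 115 of WBcel235, the ce11 sequence, and no peak ended beyond a chromosome end. All 475 names came from RefSeq through WormBase identifiers, since some Ensembl symbols repeat. Of the machinery names, 72 matched a gene and 13 did not. Location used the gene span of protein-coding genes. Families joined snRNA genes sharing over 50% of their 12-base words. Uniqueness was read from 50 bp windows in and around each gene.

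The members, lists and words were chosen with earlier results of these data known, and no test was run on them. Genes named are the 5 strongest in each biotype and location, the 3 strongest of each biotype below the threshold, named families as counts and the 3 strongest genes of each machinery list; 17 of 45 members with a symbol had a summit. Matching was tested on simulated data. Scripts ran in Python 3.11.15 with SciPy 1.17.1 for intervals, pandas 2.3.3 and numpy 2.4.6 for tables and matplotlib 3.10.9 for figures.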

Additional observations from a re-analysis of the deposited data

How the results depend on the processing

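Of the recomputed values, 15 moved beyond their interval or spread and 70 by less. With summits within 500 bp, the share was 33.8% of all snoRNA genes and 30.1% of those inside hosts. With every pooled peak it was 46.5% of snoRNA genes (43.5% inside hosts, 50% between genes) and 27.9% of snRNA genes (36.5% inside hosts). Without summits in coding promoter windows it was 15.9% of snoRNA genes (15.3% between genes), 10.9% of snRNA genes and 3.23% of snRNA genes between genes. With the 2972 strongest peaks of the list alone, 15.7% of snoRNA genes inside hosts had a summit. The snoRNA median position was -29 bp with summits within 100 bp, and -30 to -24.5 bp when either replicate was left out. Shares left within their interval included those from each replicate alone, from genes merged into loci, and, chosen after seeing the data, without summits near tRNA genes and for genes with 90% or more unique windows. No paired analysis was possible because there is 1 group. Peak lists give no depth, so a gene without a peak may lie below what was detectable.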

Other observations

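Summits at snRNA genes were unevenly spread over chromosomes, seen after the values were known. A summit lay at 9 of 13 snRNA genes on chromosome III (69.2%) and 8 of 16 on chromosome II (50%), against 2 of 41 on chromosome IV (4.88%) and 1 of 40 on chromosome V (2.5%). On chromosome I it was 4 of 16, and on X 0 of 3. Families are not spread evenly either, since the 12 SL1 genes all lie on V. Genes with a summit on III include sls-2.5, sls-2.8, sls-2.14, sls-2.16 and sls-2.18. They also include W05B2.8, R07E5.16 and F54D8.7 of the W05B2.8 family. On II they include sls-2.1, sls-2.2 and sls-2.3, and the 8 genes there stand on 7 distinct summits. Chromosome and family were not separated here. For snoRNA genes the shares ranged from 12.1% on X (4 of 33) to 32.7% on V (18 of 55).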
